A study of Homo sapiens with 9 samples.

Results

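The mitochondrial respiratory chain is built from proteins encoded in 2 genomes, and the nuclear genome encodes most of its subunits. Complex I takes electrons from NADH, complex III passes them from ubiquinol to cytochrome c, complex IV hands them to oxygen, and complex V, the ATP synthase, uses the proton gradient that the others build. Melanoma lines differ in how much they rely on this chain, and the coactivator PPARGC1A, a regulator of mitochondrial gene expression, is known as one source of that difference. The mRNA of these nuclear subunit genes was followed in SKMEL28 cells after knockdown of p16 and of ATR. Gene symbols were matched against a fixed pattern for subunits of complexes I, III, IV and V. This gave 73 of the 48162 rows of the table, which stand for 70 symbols, since NDUFA7, NDUFB8 and UQCR11 each have a second, overlapping row. Of the 73 rows, 69 passed the filter on low counts and were tested, and the other 4 were the second rows of those genes and ATP5I.

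SKMEL28 is an established human melanoma cell line. The 9 libraries came from cells transduced with lentivirus carrying a short hairpin that targets GFP (shCont), one that targets p16, the product of CDKN2A (shp16), or hairpins against p16 and ATR together (shp16+shATR), with 3 libraries in each group. All groups were selected with puromycin, and all were grown in DMEM with 5% serum. The study calls its 3 RNA measurements technical replicates of 1 experiment, so the p-values here measure only the spread between libraries. There is no group with the ATR hairpin alone, and whether the shp16 cells received a second, control virus is not stated for these libraries in the sources used here. RNA came from whole populations of cells, in which fewer cells with a transcript and less of it per cell cannot be told apart.

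The promoters of 58 of the 70 genes were read from RefSeq (GRCh38.p14) as windows of 300 bases, from 250 bases before the transcription start to 50 bases after it. Transcription factors NRF1, GABPA (of the ETS family) and YY1 are known to act on many genes of the respiratory chain. The letters CGCATGCG (NRF1), CCGGAAG (ETS) and AAGATGGCG (YY1) were searched on both strands. CGCATGCG occurred in 10 of the 70 windows of these genes (14.3%) and in 2.02% of all 35116 windows. CCGGAAG was found in 19 of the 70 windows (27.1%) and in 10.3% of all, and AAGATGGCG in 9 windows (12.9%) and in 1.75% of all. The ETS and YY1 letters can share bases, but they overlapped in none of the 70 windows and in 5 of all windows. Median GC content was 59.2% in the windows of these genes and 58.7% in all windows. Below are stretches of 30 bases around each match in the genes the results turn on, namely those called lower in shp16+shATR than in shCont and those called in both of the other comparisons without 1 control library. Capitals mark the matched letters. The windows of ATP5G1 and NDUFV1 hold none of the 3 motifs, nor does that of UQCR10, which was added though it meets neither condition. The table holds no window for NDUFC2. The NDUFA5 stretch, from 1 of its 3 windows, is chr7:123557957-123557986 on the minus strand. NDUFA6 is chr22:42090728-42090757 and NDUFA8 chr9:122159764-122159793, both on the minus strand. The COX4I1 stretch, chr16:85799686-85799715 on the plus strand, has the ETS letters on the opposite strand. The 2 stretches of NDUFS7 are chr19:1383822-1383851 and chr19:1383914-1383943, and that of NDUFA9 is chr12:4649114-4649143, all on the plus strand. A match is a description of letters and not evidence of binding.
NDUFA5 NRF1: tatgcccatcgCGCATGCGtcaatttttct
NDUFA6 YY1: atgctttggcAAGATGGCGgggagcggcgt
NDUFA8 NRF1: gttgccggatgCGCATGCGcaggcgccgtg
COX4I1 ETS: ggccttgctctCTTCCGGtcgcgggacacc
NDUFS7 NRF1: gttccggtttcCGCATGCGctccgagccgc
NDUFS7 YY1: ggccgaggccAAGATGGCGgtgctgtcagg
NDUFA9 YY1: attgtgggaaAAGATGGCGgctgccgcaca

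Library totals lay between 17314662 and 23588174 counts, and all libraries had 21341 or more genes with a count. The 8 markers of the melanocyte lineage summed to between 13386 and 15002 CPM (counts scaled to a common library size by TMM) in shCont, between 7769 and 13015 in shp16 and between 10941 and 13044 in shp16+shATR. Of these TYRP1, a pigment enzyme, was called lower against shCont in both knockdown groups (-0.43 and -1.31, edgeR adjusted p = 0.0228 and 1.41e-05), and S100B was called lower in shp16 (-0.68, edgeR adjusted p = 0.013). Against shp16, shp16+shATR was lower for TYRP1 (-0.88) and higher for S100B (0.67, edgeR adjusted p = 0.0014 and 0.0254). Of 8 markers of other cell types 7 have a row, and PTPRC and CD3E, which mark leukocytes, were at 0 in all 9 libraries. The 7 summed to between 0.308 and 0.549 CPM in shCont, between 4.44 and 5.87 in shp16 and between 2.05 and 5.25 in shp16+shATR, with KRT5 and KRT14, keratins of epithelial cells, called higher than in shCont in both knockdown groups. The part of both marker lists in the results below was not tested. ATR stood at 93.5, 83.4 and 85.6 CPM in shp16 and at 39.9, 40.0 and 41.0 in shp16+shATR, a log2 fold change of -1.12 ± 0.22 (SE, edgeR adjusted p = 0.0128). The call was lost without shp16 replicate 1 or any shp16+shATR library (edgeR adjusted p between 0.0554 and 0.0707). CDKN2A differed by -0.48 ± 0.16 between shp16 and shCont (edgeR adjusted p = 0.0723), a change that did not pass the threshold of 0.05 used throughout.

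One control library stood apart and decided much of what follows. In shCont replicate 1 the tested subunit genes lay at a median of 0.57 log2 units above their mean in the other 8 libraries, whereas their median in each of those 8 lay between -0.06 and 0.07. Of 69 genes, 65 were higher in it than in both other shCont libraries, by a median of 0.60 (1.51-fold), and 59 had their highest value of all 9 libraries there. Over all genes tested 43.4% were higher in it than in both other shCont libraries, and the median difference was -0.00. Subunit genes took 0.807% of all counts in shCont replicate 1 and between 0.593% and 0.655% in the other libraries. This library also had the fewest genes with a count, and its ATR level, 45.9 CPM against 93.5 and 96.4 in the other shCont libraries, was near that of the shp16+shATR libraries. Transcript length moved with it in part. All genes under 1000 bases had a median of 0.05 there, against 0.64 for the subunit genes of that length. All genes of 1000 to 2000 bases had a median of 0.31 there and those over 2000 bases -0.06, while the 23 subunit genes over 2000 bases had a median of 0.71. With the length trend removed, the median is given for the first comparison and the counts of calls are given at the end. Values of single genes from those fits are given only where a direction turned. The part of the other features was not tested. Chi-square per degree of freedom against its own group was 68.5 and 83.4, compared with 5.15 between the other shCont libraries. shp16 replicate 1 also departed from its group (37.9 and 37.2, against 1.94 between the other shp16 libraries). Each comparison is therefore given with all 9 libraries and again without shCont replicate 1. In the latter fit 16184 instead of 15776 genes passed the filter. This fit was set beside the one with all libraries after the values were seen. Since the subunit genes were high in shCont replicate 1, leaving it out raises their change from shCont. The biological coefficient of variation, the spread between libraries that edgeR estimates, was 0.149 with it and 0.0903 without it.

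**Figure D1:**
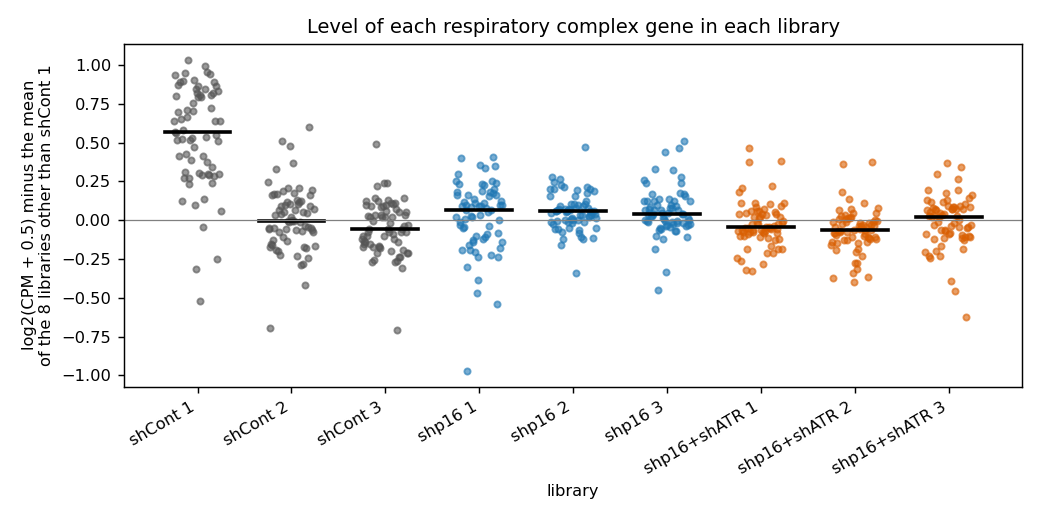
Each point is 1 of 69 subunit genes in 1 library (x axis), as log2(CPM + 0.5) minus the gene's mean over the 8 libraries other than shCont 1 (y axis, log2 units), with the black bar at the median. The median is 0.57 in shCont 1 and between -0.06 and 0.07 in the other 8 libraries.

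Compared per length, in the FPKM that the authors deposited, levels of the 50 rows with no overlapping row on their strand ranged from 0.543 for ATP5I to 448 for ATP5B, with a median of 48.6. ATP5B, the catalytic beta subunit of the ATP synthase, had 403 ± 13.1 FPKM in shCont, 490 ± 3.57 in shp16 and 451 ± 16.01 after both knockdowns (SD, n = 3). The next highest means over the 9 libraries were those of UQCRH, the hinge protein of complex III (349), and of COX5B, a subunit of complex IV (286). UQCRH and COX5B did not differ beyond their spread in shCont, with 345 ± 53.1 and 349.9 ± 106 FPKM (SD, n = 3). Median levels by list were 48.3 FPKM for the catalytic core of complex I, 57.1 for complex III, 88.4 for complex IV and 86.2 for the F1 head of complex V.

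A group of subunit genes had far fewer counts than their partners. Of the 73 rows, 23 overlap another row on the same strand, or 31.5%, against 21.3% of all 48162 rows, and their median was 6.36 CPM compared with 89.9 for the other 50. Of the 16 rows under 10 CPM, each overlaps another row on one strand or the other, and none of the 28 rows free of any overlap was under 10 CPM. NDUFA13, an accessory subunit of complex I, overlaps 2 rows named YJEFN3 and held 101 counts in all 9 libraries together. NDUFV2, a core subunit that carries an iron-sulphur cluster, also has an overlapping row and held 130 counts, fewer than the 555 counts of its pseudogene NDUFV2P1. NDUFC2, a subunit of the membrane arm of complex I, overlaps the read-through row NDUFC2-KCTD14 and held 746 counts. How reads in overlapping rows were counted is not given in the sources used here, so levels of these genes, and of the others with an overlap, are uncertain. For 27 of the 34 genes with a pseudogene row, the pseudogenes held under 1% of the gene's counts. The others, beside NDUFV2, were NDUFB8 with 38.7%, COX6A1 with 6.83%, UQCRFS1 with 4.17%, NDUFA9 with 2.10%, COX6C with 1.45% and NDUFA3 with 1.09%.

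**Figure D2:**
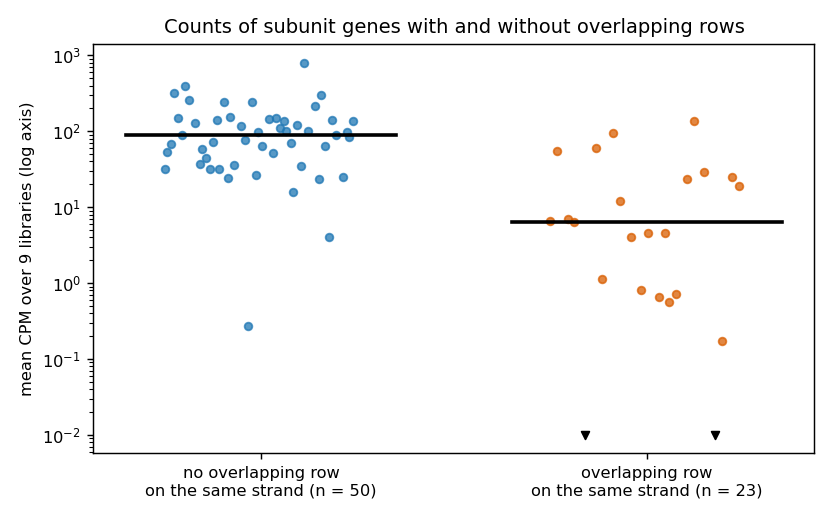
Each point is 1 of 73 rows of subunit genes, by whether another row overlaps it on the same strand (x axis) and by its mean CPM over 9 libraries (y axis, log scale), with the black bar at the median (89.9 and 6.36 CPM). The 2 triangles at the foot are rows with no count.

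The first comparison asks what p16 knockdown changed. With all 9 libraries 1 of 69 subunit genes was called lower in shp16 than in shCont and 0 were called higher by edgeR, while 7.59% of all genes tested were called lower and 7.23% higher. Unadjusted p was under 0.05 for 10 of the 69, and DESeq2 called 3 lower and 1 higher, where it called 9.28% and 9.31% of all genes. Their median log2 fold change was -0.20, against -0.02 for all genes, and it was -0.10 once a trend with transcript length was removed. Without shCont replicate 1 the picture turned around, in part by construction, since these genes were high in that control library. Then 14 were called higher and 3 lower, where 13.4% and 12.5% of all genes were called, and the median was 0.06. Thus 20.3% of the subunit genes were called higher in that fit and 4.35% lower. The 14 were NDUFV1, NDUFS7 and NDUFS8 of the complex I core, the accessory subunits NDUFA9, NDUFA12, NDUFS5 and NDUFB6, the complex IV subunits COX5A, COX6A1 and COX8A, and ATP5B, ATP5F1, ATP5G2 and ATP5G3 of the ATP synthase. None of the 8 tested genes of complex III was called in either fit.

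The second comparison asks what ATR knockdown changed in p16 knockdown cells, and it does not use the shCont libraries except through the shared estimate of spread. With all 9 libraries 1 of the 69 genes was called lower in shp16+shATR than in shp16 (1.45%) and 0 higher, against 3.49% and 2.73% of all genes. Unadjusted p was under 0.05 for 3, and DESeq2 called 1 in each direction, where it called 5.90% of all genes lower and 4.91% higher. The median log2 fold change was -0.08, against 0.00 over all genes. Without shCont replicate 1 the median was again -0.08, but the spread was smaller, and 7 genes were called lower and 1 higher where 11.0% and 8.94% of all genes were. Among these were NDUFS7 and NDUFV1 of the complex I core, NDUFA1 and NDUFA9, and ATP5G1 and ATP5H of the ATP synthase.

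In the third comparison, of both knockdowns against the control, 7 of 69 genes were called lower and 0 higher with all libraries, where 12.7% and 10.9% of all genes were. Unadjusted p was under 0.05 for 21, and the median was -0.27. DESeq2 called 8 lower and 0 higher, where it called 13.6% and 12.9% of all genes. Without shCont replicate 1, 6 were called lower and 7 higher, where 17.5% and 15.9% of all genes were, and the median was -0.04. Among those lower in both fits were NDUFA5, NDUFA6 and NDUFC2 of complex I, COX4I1 of complex IV and ATP5G1 of complex V. The 7 higher in the latter fit were ATP5A1, ATP5F1, ATP5G2, COX5A, NDUFA4, NDUFA12 and UQCR10. The 3 comparisons share libraries in pairs, so their values stand side by side and are not independent of each other.

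**Figure D3:**
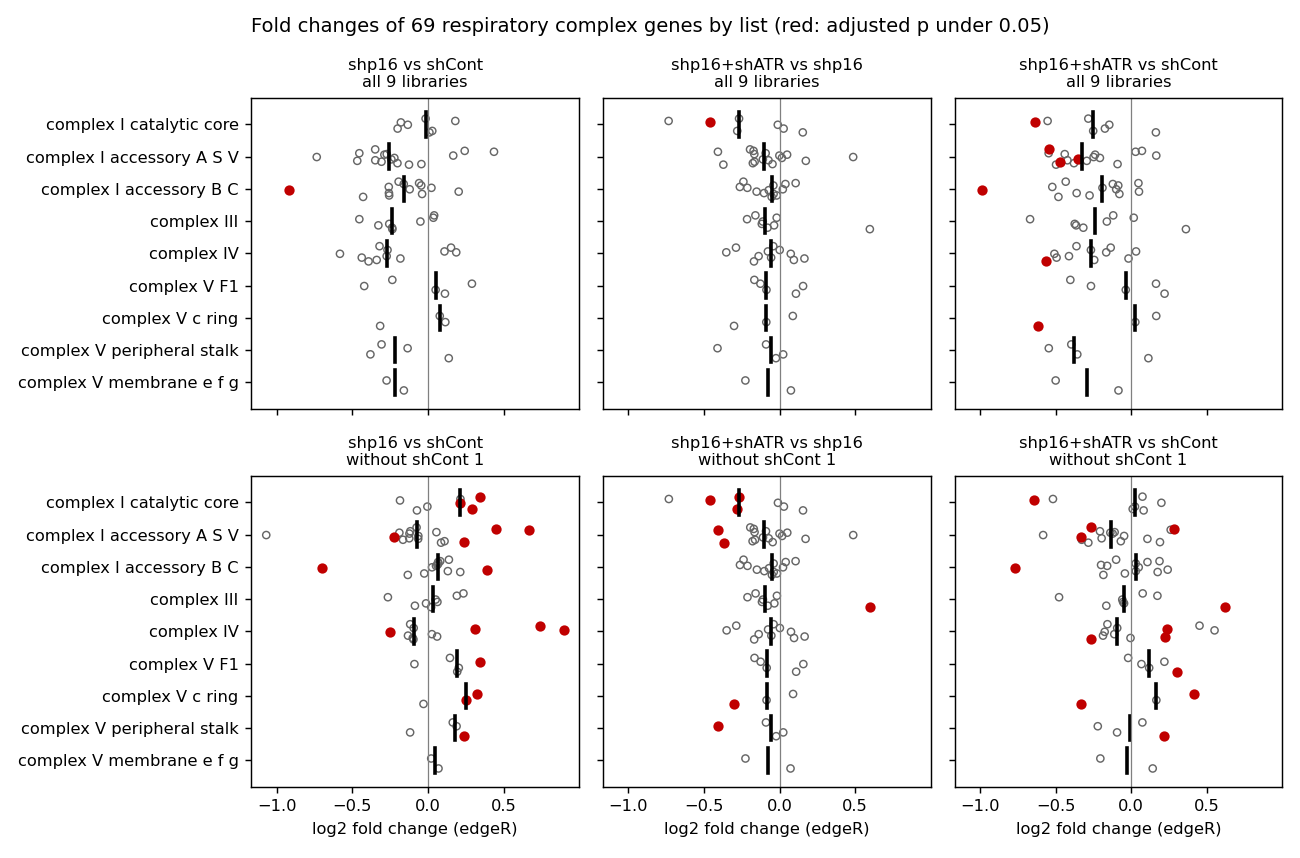
Each point is 1 of 69 subunit genes, by list (y axis) and log2 fold change from edgeR (x axis), filled red where the adjusted p was under 0.05, with the black bar at the median of the list. With all 9 libraries (top) the shp16 and shCont comparison has 1 red point, and without shCont 1 (bottom) it has 17, of which 14 lie above 0.

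The catalytic core of complex I holds the subunits that carry NADH oxidation and ubiquinone reduction. With all libraries 0 of 7 core genes were called by edgeR in shp16 against shCont, where 14.8% of all genes were called. Without shCont replicate 1, 3 of the 7 were called higher in that comparison, where 13.4% of all genes were. The median of the core genes went from -0.02 to 0.21. NDUFV1, the core subunit that binds NADH, had 153, 98.9 and 91.1 CPM in shCont, 122, 115 and 112 in shp16 and 98.0, 93.3 and 96.6 in shp16+shATR. Each shp16 library was above the shp16+shATR libraries and above shCont replicates 2 and 3, and below shCont replicate 1. With all libraries its log2 fold change was 0.03 ± 0.17 between shp16 and shCont and -0.28 ± 0.17 in shp16+shATR against shp16 (SE, edgeR adjusted p = 0.932 and 0.387). In the fit without shCont replicate 1 these were 0.29 ± 0.07 and -0.28 ± 0.07 (edgeR adjusted p = 0.0138 and 0.0107). NDUFV1, NDUFS7 and NDUFA9 were the 3 genes called in both of these comparisons in that fit. Each was higher in shp16 than in shCont and lower in shp16+shATR than in shp16, directions in which 13.4% and 11.0% of all genes were called. The comparisons share the shp16 libraries with opposite sign, and the share of all genes called in both is not given here. NDUFA9 had 8.09, 4.93 and 5.64 CPM in shCont, 9.14, 7.92 and 8.29 in shp16 and 7.04, 6.19 and 5.89 in shp16+shATR. Its level is low, and 3 rows overlap it on its strand. NDUFS7, a core subunit with an iron-sulphur cluster, had 54.7, 29.1 and 29.9 CPM in shCont, 39.4, 35.9 and 37.3 in shp16 and 32.1, 30.6 and 30.9 in shp16+shATR. Its levels in shp16 and in shCont replicates 2 and 3 did not overlap. NDUFS3, a core subunit of the peripheral arm, had between 50.002 and 54.5 CPM in the 8 libraries other than shCont replicate 1, where it had 74.9. Its log2 fold change between shp16 and shCont was -0.20 with that library (edgeR adjusted p = 0.38) and -0.00 without it (95% interval -0.16 to 0.15). NDUFS3 is overlapped by 2 rows on its strand.

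Of 16 tested accessory subunits of the A, S and V series, 0, 0 and 3 were called with all libraries in the 3 comparisons. The 3 were lower, a direction in which 12.7% of all genes were called, and the medians were -0.26, -0.10 and -0.32. These medians were -0.07, -0.10 and -0.13 without shCont replicate 1. Of 13 tested subunits of the B and C series, 1, 0 and 1 were called, each time NDUFC2 and lower. Of all genes 7.59%, 3.49% and 12.7% were called lower, and the medians of these 13 were -0.16, -0.05 and -0.19. Their medians were 0.07, -0.05 and 0.03 without shCont replicate 1. NDUFA5 of the peripheral arm had 105, 99.2 and 102 CPM in shCont, 88.7, 86.9 and 83.2 in shp16 and 82.6, 79.5 and 77.5 in shp16+shATR. The 3 groups did not overlap, and shCont replicate 1 was close to its group. It was lower in shp16+shATR than in shCont by -0.35 ± 0.09 on the log2 scale (SE, edgeR adjusted p = 0.0169) and by -0.34 ± 0.07 without that replicate (edgeR adjusted p = 0.00214). The first call was lost without any of the shp16+shATR libraries (edgeR adjusted p between 0.06 and 0.0837). NDUFA6, another peripheral-arm subunit, had 99.5, 63.7 and 57.7 CPM in shCont, 59.5, 58.0 and 56.2 in shp16 and 48.8, 51.1 and 51.6 in shp16+shATR. Its difference between shp16+shATR and shCont, -0.54 ± 0.17 (SE, edgeR adjusted p = 0.0395), was -0.27 ± 0.07 without shCont replicate 1 (edgeR adjusted p = 0.0159). The shp16+shATR libraries were below all others for NDUFA6, and its call was lost without any shp16 or shp16+shATR library (edgeR adjusted p between 0.0539 and 0.124). Another row overlaps NDUFA6 on its strand. NDUFA8, which is imported into the intermembrane space, was called with all libraries (-0.47 ± 0.15, edgeR adjusted p = 0.0402) and not without shCont replicate 1 (-0.33 ± 0.12, edgeR adjusted p = 0.0566), nor without any other single library but shCont replicate 3 (edgeR adjusted p between 0.0509 and 0.165).

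NDUFC2 (chr11:77779350-77791265 on the minus strand of GRCh37, the build of the table's coordinates) was the 1 subunit gene called lower in shp16 with all libraries. It had 172, 100 and 101 counts in shCont, 57, 86 and 49 in shp16 and 46, 79 and 56 in shp16+shATR, and shCont was above the others in every library. NDUFC2 differed from shCont by a log2 fold change of -0.92 ± 0.24 in shp16 and of -0.99 ± 0.24 in shp16+shATR (SE, edgeR adjusted p = 0.0265 and 0.0124). The first call was lost without shp16 replicate 1 or 3 (edgeR adjusted p = 0.0841 and 0.104) and the second without shp16+shATR replicate 1 (edgeR adjusted p = 0.0551). These counts are low, and the row overlaps another on its strand. NDUFA13 had the largest fold change of the accessory A, S and V subunits in shp16 against shCont, -0.74 (95% interval -1.88 to 0.41), from 6 to 19 counts a library, and did not pass the test. NDUFB10 of the membrane arm ranged from 57.3 to 89.1 CPM outside shCont replicate 1, where it had 127, and differed by -0.26 between shp16+shATR and shp16 (95% interval -0.71 to 0.19).

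In complex III 0 of 8 tested genes were called by edgeR in any comparison with all libraries (unadjusted p under 0.05 for 0, 1 and 1). Of all genes 14.8%, 6.22% and 23.6% were called, and the medians of complex III were -0.24, -0.10 and -0.24. These medians were 0.04, -0.09 and -0.05 without shCont replicate 1. The differences of 7 of the 8 tested genes between shp16+shATR and shp16 were between -0.22 and -0.02, and UQCR10 went the other way. UQCR10, a small subunit next to cytochrome c1, lies at chr22:30163358-30166402 on the plus strand (GRCh37), with no overlapping row. It had 57.0, 36.2 and 35.4 CPM in shCont, 34.2, 37.8 and 37.2 in shp16 and 58.6, 54.7 and 52.1 in shp16+shATR. All shp16+shATR libraries were above all shp16 libraries and above shCont replicates 2 and 3, and shCont replicate 1 was at their level. The log2 fold change in shp16+shATR against shp16 was 0.60 ± 0.17 with all libraries, which missed the threshold (SE, edgeR adjusted p = 0.0578), and 0.60 ± 0.07 without shCont replicate 1 (edgeR adjusted p = 0.000142). DESeq2 called it with all libraries (DESeq2 adjusted p = 0.0123). Over the 23 alternative fits the fold change was between 0.55 and 0.63, and 9 of them called it. Against shCont the fold change was 0.36 (95% interval -0.00 to 0.72) with all libraries and 0.62 (0.44 to 0.79) without shCont replicate 1. UQCRFS1, the Rieske iron-sulphur protein, had 164, 119 and 125 CPM in shCont, 117, 119 and 111 in shp16 and 110, 109 and 110 in shp16+shATR, and was not called with all libraries (edgeR adjusted p between 0.0863 and 0.786). Of the alternative fits 1 called it, that without shCont replicate 1 and shp16 replicate 1, in shp16+shATR against shCont (-0.17, edgeR adjusted p = 0.0174). UQCR11 had the largest fold change of complex III against shCont, -0.67 in shp16+shATR (95% interval -1.75 to 0.42), from 9 to 41 counts a library in the row tested.

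Of 11 genes of complex IV, COX4I1 was the 1 called with all libraries, lower in shp16+shATR than in shCont, where 12.7% of all genes were. The medians of complex IV were -0.27, -0.06 and -0.27. They were -0.09, -0.05 and -0.09 without shCont replicate 1. COX4I1, the regulatory subunit of complex IV to which ATP binds (chr16:85832239-85840650 on the plus strand, GRCh37), had 247, 149 and 141 CPM in shCont, 133, 140 and 136 in shp16 and 117, 125 and 122 in shp16+shATR. The groups stood in that order without overlap. Between shp16+shATR and shCont it was lower by -0.56 ± 0.18 (SE, edgeR adjusted p = 0.0406) and, without shCont replicate 1, by -0.26 ± 0.07 (edgeR adjusted p = 0.0103). The call with all libraries was lost on leaving out any shp16 or shp16+shATR library, with edgeR adjusted p between 0.0546 and 0.127. COX6B1, which sits where the monomers of complex IV meet, had 207, 120 and 112 CPM in shCont, 97.8, 96.6 and 98.9 in shp16 and 101, 102 and 106 in shp16+shATR. Its change in shp16 against shCont was -0.58 ± 0.19 with all libraries (SE, edgeR adjusted p = 0.064) and -0.25 ± 0.07 without shCont replicate 1 (edgeR adjusted p = 0.0183). COX5A moved the other way in that fit, with 109 and 104 CPM in shCont replicates 2 and 3 and 142, 130 and 127 in shp16, a change of 0.31 ± 0.08 (SE, edgeR adjusted p = 0.011). With all libraries the change of COX5A was 0.11 and was not called. It was not called without any other single library either (edgeR adjusted p between 0.642 and 0.991), and 3 of the 23 alternative fits called it. COX8A, from 64 to 252 counts a library and with an overlapping row, had the largest change of complex IV between shp16+shATR and shp16, -0.35 (95% interval -1.17 to 0.47), which did not pass.

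**Figure D4:**
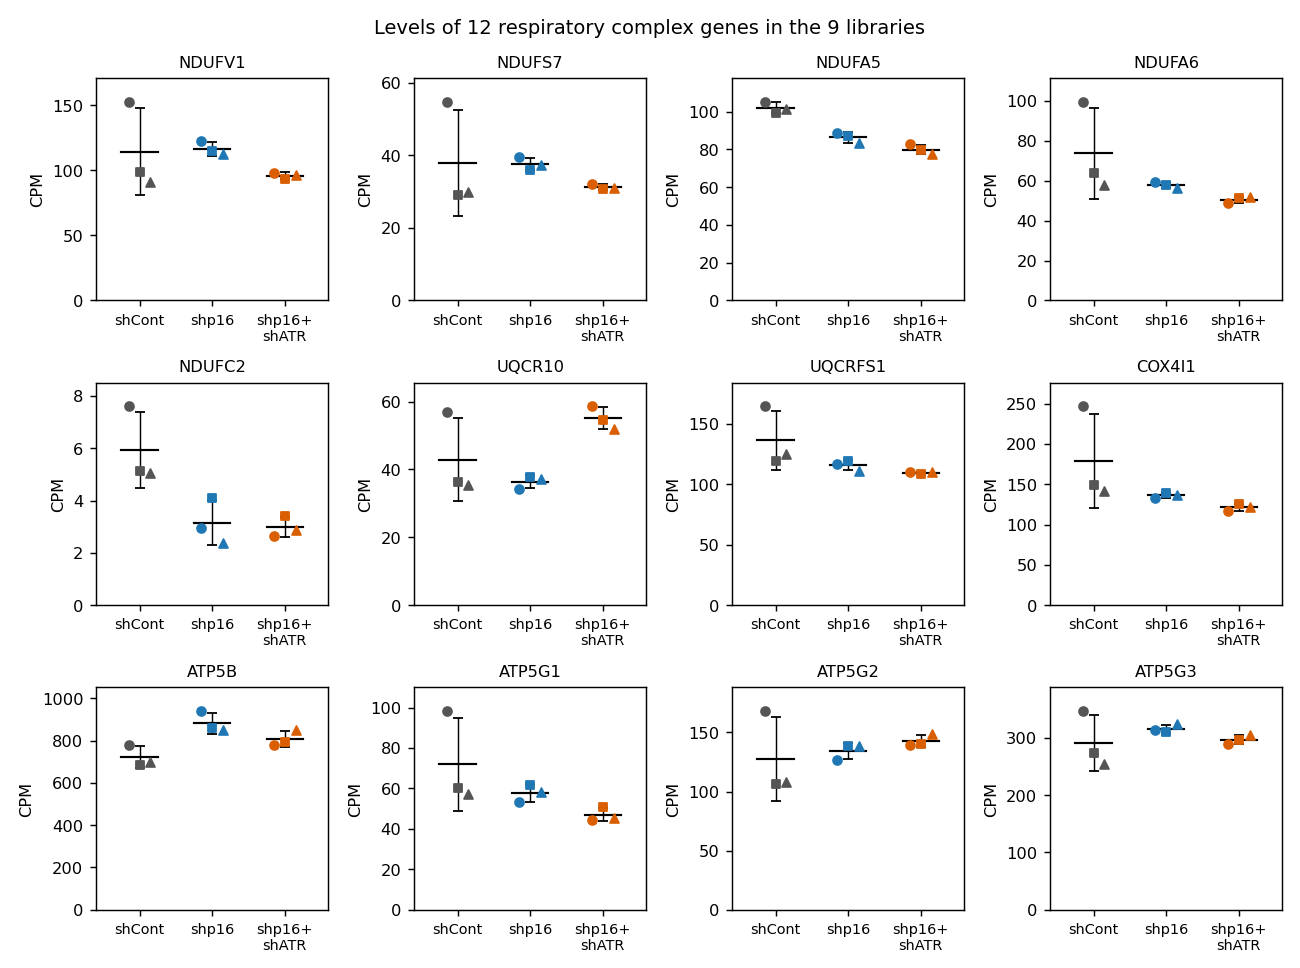
CPM (y axes, each starting at 0) of 12 subunit genes in shCont, shp16 and shp16+shATR (x axes), with the circle, square and triangle for replicates 1, 2 and 3, a bar at the mean and error bars of 1 SD (n = 3). shCont replicate 1 is far above its group for NDUFV1, COX4I1 and ATP5G1 but not for NDUFA5.

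In complex V 1 of 14 tested genes, ATP5G1, was called with all libraries, lower in shp16+shATR than in shCont, where 12.7% of all genes were. The medians of complex V were -0.15, -0.09 and -0.18. They were 0.18, -0.09 and 0.10 without shCont replicate 1. ATP5B had 779, 684 and 699 CPM in shCont, 940, 858 and 848 in shp16 and 778, 793 and 851 in shp16+shATR. Each shp16 library exceeded each shCont library, by 0.29 ± 0.11 on the log2 scale with all libraries (SE, edgeR adjusted p = 0.0898) and by 0.34 ± 0.09 without shCont replicate 1 (edgeR adjusted p = 0.0115). ATP5E and ATP5D, the small epsilon and delta subunits of the F1 head, had their largest changes from shCont at -0.42 in shp16 and -0.40 with both knockdowns, respectively, and neither passed (edgeR adjusted p = 0.182 and 0.203). The values were -0.09 and -0.02 without shCont replicate 1. In the peripheral stalk ATP5H had 25.9, 14.2 and 15.2 CPM in shCont, 16.6, 16.6 and 17.4 in shp16 and 13.3, 11.3 and 13.5 in shp16+shATR. The fall of ATP5H from shp16 to shp16+shATR, -0.41, was called only without shCont replicate 1 of these 2 fits (edgeR adjusted p = 0.0129 and 0.294). ATP5J of the stalk differed by -0.38 between shp16 and shCont (95% interval -0.77 to 0.01). ATP5L of the membrane part, which another row overlaps on its strand, differed by -0.50 between shp16+shATR and shCont (95% interval -0.93 to -0.07, edgeR adjusted p = 0.0875). Neither passed, and both lie closer to 0 without shCont replicate 1 (-0.12 and -0.20).

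The ring of c subunits turns in the membrane, and 3 genes, ATP5G1, ATP5G2 and ATP5G3, encode the same mature protein behind different import sequences. ATP5G1 (chr17:46970127-46973233 on the plus strand, GRCh37) had 98.3, 60.1 and 57.4 CPM in shCont, 53.2, 61.7 and 58.4 in shp16 and 44.5, 50.6 and 45.6 in shp16+shATR. The shp16+shATR libraries were below all others. It was lower there than in shCont by -0.62 ± 0.18 (SE, edgeR adjusted p = 0.0292), and by -0.33 ± 0.08 without shCont replicate 1 (edgeR adjusted p = 0.00979). Leaving out shp16+shATR replicate 1, 2 or 3 lost the call with all other libraries (edgeR adjusted p between 0.0621 and 0.101). ATP5G2 had 168, 106 and 108 CPM in shCont, 127, 138 and 138 in shp16 and 140, 140 and 148 in shp16+shATR, and ATP5G3 had 347, 273 and 254, then 313, 310 and 324, then 290, 297 and 304. Both were called higher in shp16 without shCont replicate 1 (0.32 ± 0.07 and 0.25 ± 0.07, SE, edgeR adjusted p = 0.00639 and 0.0239), and neither was called with it (edgeR adjusted p = 0.788 and 0.57). ATP5G2 was also called higher in shp16+shATR than in shCont without that replicate (0.41), and not with it (0.17).

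A share within a library is not moved by a rise that the 3 genes of the c ring have in common. In shCont replicate 1 they did not rise alike. The share of ATP5G3 was 32.8% there, against 38.1% and 36.6% in the other shCont libraries. Shares were chosen as a measure after the values were seen. Of the summed FPKM of the 3 genes, ATP5G1 made up 23.04%, 20.8% and 20.5% in shCont, 16.5%, 18.1% and 16.99% in shp16 and 14.01%, 15.4% and 13.6% in shp16+shATR. The 3 groups did not overlap, and shCont replicate 1 was the highest of its group. The share of ATP5G2 was 44.2%, 41.1% and 43.0%, then 44.2%, 45.3% and 45.0%, and then 49.2%, 48.0% and 49.7%, and here shCont replicate 1 reached the level of shp16 replicate 1. For ATP5G3 the mean share was 35.8% ± 2.74, 37.97% ± 1.35 and 36.7% ± 0.115 (SD, n = 3). With 3 libraries against 3, the exact two-sided permutation test cannot give a p below 0.1, and that was its value for each of the 3 comparisons of ATP5G1 and of ATP5G2, among 9 made. ATP5G2 overlaps another row on its strand, which limits how far its level can be read.

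Genes outside the pattern that belong to the same chain were listed as well. The 13 protein genes of the mitochondrial genome had no call in any comparison with all libraries (unadjusted p under 0.05 for 0 in each). Of all genes 14.8%, 6.22% and 23.6% were called. The median fold changes of the 13 were -0.14, -0.12 and -0.17 in the order of comparisons above. MT-ATP8 was the 1 gene of the 13 called without shCont replicate 1, higher in shp16 than in shCont, where 13.4% of all genes were. MT-CO1 of complex IV had 21063, 17283 and 20333 CPM in shCont, 26440, 14054 and 14020 in shp16 and 16675, 14677 and 18916 in shp16+shATR, with shp16 replicate 1 far above its group. In complex II, which is encoded by the nucleus alone, SDHA, SDHB, SDHC and SDHD were not called with all libraries (edgeR adjusted p from 0.0654 to 0.994, unadjusted p under 0.05 for 1 gene in each comparison). Over all genes the shares called were again 14.8%, 6.22% and 23.6%. Without shCont replicate 1 SDHA was called lower against shCont in shp16 (-0.22, edgeR adjusted p = 0.0475) and in shp16+shATR (-0.21, edgeR adjusted p = 0.0477). SDHC was called higher in shp16+shATR against shp16 (0.25, edgeR adjusted p = 0.0152) and against shCont (0.23, edgeR adjusted p = 0.0253). CYCS, which encodes cytochrome c, had 235, 213 and 204 CPM in shCont, 196, 174 and 180 in shp16 and 143, 145 and 148 in shp16+shATR. The groups of CYCS did not overlap, and it was lower in shp16+shATR than in shCont by -0.58 ± 0.10 (SE, edgeR adjusted p = 0.00158), in all 23 alternative fits. CYC1, cytochrome c1, was not called with all libraries (-0.38 in shp16+shATR against shp16, edgeR adjusted p = 0.259). It was called lower in that comparison without shCont replicate 1, where 11.0% of all genes were, and 5 of the 23 alternative fits called it.

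Factors that assemble the complexes were counted with all libraries. For complex I, 1 of 14 was lower in shp16 than in shCont, where 7.59% of all genes were, and 2 of 14 were lower in shp16+shATR than in shCont, where 12.7% were, with NDUFAF7 and NDUFAF2 the largest (-0.58 and -0.66, edgeR adjusted p = 0.0349 and 0.00929). NDUFAF2 was called in all 23 alternative fits and NDUFAF7 in 12. For complex III, 2 of 6 were lower in shp16+shATR than in shCont (12.7% of all genes), led by LYRM7 at -0.64 (edgeR adjusted p = 0.01), a call kept in all 23. For complex IV, COA7 (listed as SELRC1) was the 1 of 20 called higher in shp16 than in shCont, a direction in which 7.23% of all genes were called, at 0.48 (edgeR adjusted p = 0.0205), lost without any shp16 library (edgeR adjusted p between 0.0506 and 0.0666). In shp16+shATR against shCont 1 of the 20 was higher and 2 lower, against 10.9% and 12.7% of all genes, with COX16 at -1.18 from under 2 CPM in every library (edgeR adjusted p = 0.0273), which was lost without shCont replicate 1 (edgeR adjusted p = 0.0827) or any shp16+shATR library. TMEM70, which assembles the ATP synthase, had 32.0, 29.5 and 28.1 CPM in shCont, 25.6, 27.0 and 26.4 in shp16 and 20.01, 18.6 and 18.1 in shp16+shATR. TMEM70 fell from shp16 to shp16+shATR by 0.48 on the log2 scale (edgeR adjusted p = 0.0217), a direction in which 3.49% of all genes were called, and the groups did not overlap. This call was lost without shp16 replicate 2 or 3 or any shp16+shATR library (edgeR adjusted p between 0.0811 and 0.111). Against shCont TMEM70 differed by -0.66 in shp16+shATR (edgeR adjusted p = 0.000978), where 12.7% of all genes were called lower. That second call was kept in all 23 alternative fits. The forms of subunits known from muscle, testis or other tissues were at or near 0, with 3 of 9 tested and 0 called (unadjusted p under 0.05 for 0). Over all genes 14.8%, 6.22% and 23.6% were called in the 3 comparisons.

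Among 11 regulators of mitochondrial biogenesis, the largest differences were those of ESRRA and TFB1M. ESRRA, a nuclear receptor that acts with PPARGC1A on genes of oxidative metabolism, had 44.3, 38.7 and 31.1 CPM in shCont, 44.1, 52.4 and 53.6 in shp16 and 21.2, 19.6 and 19.9 in shp16+shATR. All shp16+shATR libraries were below every other library. The log2 fold change was -1.31 ± 0.14 against shp16 and -0.91 ± 0.14 against shCont (SE, edgeR adjusted p = 0.000617 and 0.000782), and both calls were kept in all 23 alternative fits. TFB1M, which methylates the small ribosomal RNA of mitochondria, had 41.4, 32.1 and 31.4 CPM in shCont, 26.8, 27.0 and 28.2 in shp16 and 47.5, 47.2 and 46.9 in shp16+shATR. It was higher in shp16+shATR than in shp16 by 0.79 ± 0.12 (SE, edgeR adjusted p = 0.0036), again in all 23. YY1 was higher than in shCont in both knockdown groups (0.40 and 0.39, edgeR adjusted p = 0.0258 and 0.0198), calls kept in 15 and 19 of 23 alternative fits. PPARGC1A was at 2.87 to 4.85 CPM in shCont, 4.68 to 5.55 in shp16 and 2.64 to 3.35 in shp16+shATR, and its fall of -0.71 from shp16 to shp16+shATR was not called with all libraries (edgeR adjusted p = 0.0798) and was called without shCont replicate 1 (edgeR adjusted p = 0.0131). TFAM, which packages mitochondrial DNA, had 35.3 to 46.3 CPM in shCont, 49.0 to 50.7 in shp16 and 46.8 to 52.5 in shp16+shATR and passed no test (edgeR adjusted p from 0.129 to 0.924).

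**Figure D5:**
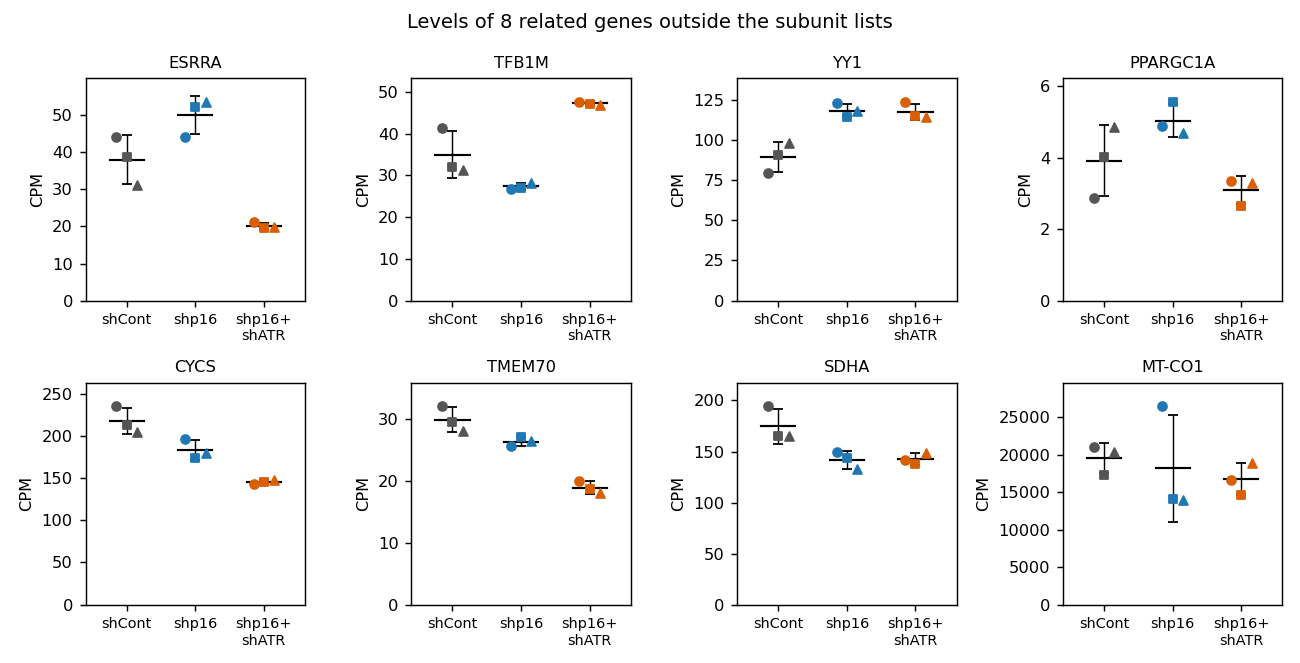
CPM (y axes, each starting at 0) of 8 genes outside the subunit lists in shCont, shp16 and shp16+shATR (x axes), with the circle, square and triangle for replicates 1, 2 and 3, a bar at the mean and error bars of 1 SD (n = 3). ESRRA lies at 19.6 to 21.2 CPM in shp16+shATR, below all other libraries, and TFB1M at 46.9 to 47.5, above them.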

How the data were processed

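RNA-seq of SKMEL28 cells gave 9 libraries, 3 in each of 3 groups, with groups taken from the sample labels. The authors deposited raw read counts per gene, made without further scaling, and FPKM, which the authors deposited as counts scaled by gene length and library size. Library preparation, sequencing and read processing were done by a service provider. The submitters' processing notes name STAR 2.6.1 and GRCh38, but the gene coordinates in the table are those of GRCh37 and are given as such. The counting tool is not given in the sources used here. The 3 count columns of shp16+shATR carry 1 name, and each was matched to its numbered FPKM column (largest relative difference 4.22e-07). The number of per-sample columns left unused was 0.

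Counts were tested with edgeR 4.0.16 (R 4.3.3), by the quasi-likelihood test with TMM scaling, its default filter on low counts and 1 coefficient per group over all 9 libraries. P-values were adjusted by Benjamini-Hochberg over the 15776 genes tested, with a threshold of 0.05. DESeq2 1.42.0, limma 3.58.1 on log2(FPKM + 1), other scalings, filters, length and GC corrections, a replicate block and leaving out each library were alternatives. The script was tested on simulated data. Intervals of fold changes are at 95%. Shares within a library were compared by exact permutation with scipy 1.17.1. The gene pattern and the lists were chosen with earlier results of these data known. Genes with values in every library were, per list and comparison, the called gene of largest change or else the gene of largest change, genes called in both of the first 2 comparisons, and 7 genes by role. NDUFA5, NDUFS7 and COX5A were added after their values were seen. The result of 1 gene that the rule would name is not reported here.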

Additional observations from a re-analysis of the deposited data

How the results depend on the processing

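The number of subunit genes called depended on single libraries more than on the tool, and the cause was not tested. Leaving out 1 library gave 0 to 17 calls in shp16 against shCont (1 with all), 0 to 8 in shp16+shATR against shp16 (1) and 1 to 17 in shp16+shATR against shCont (7), that is 0 to 24.6%, 0 to 11.6% and 1.45% to 24.6% of the subunit genes, while 8.29% to 25.9%, 1.81% to 19.9% and 14.5% to 33.3% of all genes were called. The medians then ranged from -0.294 to 0.0558, from -0.0907 to -0.0556 and from -0.39 to -0.0423. Of 2 settings chosen after seeing the data, leaving out shCont replicate 1 and shp16 replicate 1 gave 21, 11 and 30 calls in that order (30.4%, 15.9% and 43.5%, against 32.7%, 26.7% and 44.3% of all genes), with medians of 0.0604 in the first and -0.0453 in the third comparison. Removing the length trend without shCont replicate 1 gave 20, 10 and 17 calls (28.99%, 14.5% and 24.6%, against 27.1%, 21.02% and 34.1%), with medians of 0.0617 and -0.0408. For shp16 against shCont, the other counts were 4 with DESeq2, 3 with upper-quartile scaling, 2 with library size only, 5 without a filter, 0 with only the groups compared, 3 with the length trend and 4 with GC content and length removed, and 0 at an adjusted p of 0.01, where between 6.30% and 24.3% of all genes were called. For shp16+shATR against shp16 they were 2 with DESeq2, 2 without a filter, 8 with only the groups compared, 2 and 4 with those trends removed, 0 at 0.01 and 0 with a log2 change of at least 0.5 (1.96% to 18.9% of all genes). For shp16+shATR against shCont there were 19 without a filter, all lower (26.8%, against 14.1% of the 30291 genes tested in that fit). There were 3 with only the groups compared (4.35%, against 19.7% of all genes) and 1 at 0.01 (1.45%, against 12.5%). With the trends removed there were 12 and 11 (17.4% and 15.9%, against 28.6% and 33.7%). In the other fits of this list the subunit genes were called less often than all genes. The higher share without a filter is not a like comparison. That fit tested 30291 instead of 15776 genes but only 71 instead of 69 subunit genes.

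Deviations of same-numbered libraries correlated at -0.13 to 0.157, and those of libraries with different numbers at -0.2 to 0.221. This gave no sign that the numbers pair the libraries, but with 3 libraries in each group it cannot exclude it. A replicate block gave 3 calls in shp16+shATR against shCont (4.35%, against 20.3% of all genes).

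The directions that turned were those of values not called with all libraries. With shCont replicate 1 and shp16 replicate 1 left out, shp16 against shCont gave 0.0213 for NDUFS3, 0.0584 for UQCR11, 0.0313 for ATP5G1, 0.31 for NDUFS7 and -0.17 for ATR, and NDUFV1 gave 0.00576 in shp16+shATR against shCont. With the length trend removed and no shCont replicate 1, shp16 against shCont gave 0.00324 for NDUFS3, 0.0335 for ATP5L, 0.335 for NDUFS7 and -0.149 for ATR. NDUFV1 gave -0.0348 with upper-quartile scaling. NDUFS7 gave 0.000893 without a filter, 0.0299 with the replicate block, 0.0338 and 0.0407 with limma at pseudocounts of 1 and 0.1, and 0.0304 with GC content and length removed. ATP5G3 gave -0.0246 with GC content and length removed, and -0.0446 and -0.063 in shp16+shATR against shCont with length and with both removed. Leaving out 1 library, or both of these, moved shp16 against shCont from -0.126 to 1.04 for COX8A, -0.427 to 0.0214 for ATP5L, -0.11 to 0.288 for NDUFV1, -0.037 to 0.369 for ATP5G2, -0.173 to 0.341 for NDUFS7, -0.309 to 0.0213 for NDUFS3, -0.879 to 0.0584 for UQCR11, -0.454 to 0.0313 for ATP5G1 and -0.17 to 0.329 for ATR. For shp16+shATR against shCont the ranges were -0.392 to 0.0093 for NDUFV1, -0.0632 to 0.166 for ATP5G3 and -0.0763 to 0.235 for COX5A.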
